A study of Mus musculus with 12 samples.

Results

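Chemoattractant receptors were examined as a set of 9 named genes, of which 8 were measured. The members were Fpr1, Fpr2, C5ar1, Ptafr, Ltb4r1, Ccr1, Ccr2, Cxcr4 and Cx3cr1, and a member counted as measured when a probe set of the array was annotated to that gene symbol alone. Fpr1 had no such probe set and was not analysed here. The other 8 genes had 13 probe sets, out of 20380 single-gene probe sets for 12393 genes in all. Where a gene had several, the brightest on average over the 12 arrays stood for it, and the others are given beside it.

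Total RNA of 12 mouse samples was hybridised to Affymetrix expression arrays, 3 arrays in each of 4 groups. The groups were RAW264.7 cells, a mouse macrophage-like line, left overnight with 1 ug/mL estradiol; unstimulated RAW264.7 cells; macrophages from bronchoalveolar lavage (a rinse of the airspaces) of pregnant mice; and lavage macrophages of control mice. The series' design text has lavage cells lysed without culture and gives the untreated cultures vehicle, while their own label reads unstimulated, and the labels attach the estradiol treatment to every sample. The labels give no strain, age, stage of pregnancy, cell sorting or pooling, nor the origin of replicates (cultures, animals), so p-values reflect the spread of these samples, some of which may be technical. Handling of the cultures cannot be told apart from estradiol, since each condition held 1 group.

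Chemoattractant receptors are G protein-coupled receptors that let leukocytes move up gradients of bacterial peptides, complement fragments, chemokines and lipid mediators. Most of them signal through Gi proteins to phosphoinositide 3-kinase and Rac, and are then silenced by receptor kinases, arrestins and RGS proteins. In the lung they govern the recruitment of monocytes and neutrophils, while resident alveolar macrophages occupy the airspace.

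The arrays were alike within groups, with Pearson correlations of log2 values of at least 0.9946. Pairs of a pregnant and a control array were about as alike, at 0.9928 to 0.9972. Pairs of an estradiol and an unstimulated array gave 0.9941 to 0.9966, below the 0.9988 to 0.999 among unstimulated arrays. Among estradiol arrays the range was 0.9957 to 0.9984. The actin control probes put estradiol replicate 2 apart, at a log2 3' minus 5' difference of 0.74, where the remaining RAW264.7 arrays read 0.39 to 0.48. Alveolar macrophage markers had summed intensities of 90693 to 93933 in pregnant and 88536 to 92838 in control lavage, over 10 measured genes, and 24518 to 25286 in estradiol-treated and 28388 to 28547 in unstimulated RAW264.7 cells. All 10 lay above the 40th percentile of the array in lavage, but only 3, Fabp4, Itgax and Ctsk, in RAW264.7 cells. Of the 10, 8 were higher in control lavage than in unstimulated cells and 2 lower. The 2 were Fabp4 (11.67 in control lavage, 13.57 in unstimulated cells) and Ctsk (12.77 and 13.63), as mean log2 values. General macrophage markers lay above the 40th percentile of the array for 8 of 9 genes on every array, but not the same 8. The gene below it was Mertk in RAW264.7 cells, at a mean log2 of 4.56 with estradiol and 4.52 without. In lavage it was Itgam, at 5.30 in pregnant and 5.61 in control samples. Over all genes, limma called 836 higher and 578 lower with estradiol, and 620 and 707 after arrays were shifted to a common median. In bulk samples, fewer cells of a type and less RNA per cell cannot be told apart.

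With estradiol, Fpr2, Cx3cr1 and Ltb4r1 rose and Ccr1 fell in RAW264.7 cells, while C5ar1, Ccr2, Cxcr4 and Ptafr did not pass the test (limma, adjusted p under 0.05 over all genes, 3 estradiol against 3 unstimulated arrays). The called members were 4 of 8, or 50%, where 11.4% of all genes were called, 6.75% higher and 4.66% lower. The median log2 change of the 8 members was 0.16, against 0.02 over all genes. Groups did not overlap for 4 of the 8 members, and for 34.8% of all genes. All levels below are log2(intensity + 1), and dim means that fewer than 3 of the 6 arrays compared had the gene over their 40th percentile.

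Cx3cr1, the receptor of the membrane-bound chemokine fractalkine, stood at 11.11, 11.24 and 11.04 on the 3 estradiol arrays, against 10.57, 10.48 and 10.48 on the unstimulated arrays. Every estradiol array was above every unstimulated one. The log2 change was 0.62 ± 0.07 (SE), or 1.54-fold (limma adjusted p = 0.00181). The other Cx3cr1 probe set, which is dimmer, read 9.50, 8.61 and 9.55 with estradiol and 8.76, 8.72 and 8.95 without, so that estradiol replicate 2 was the lowest of the 6 arrays and the groups overlapped. Its change was 0.41 ± 0.25 and did not pass (limma adjusted p = 0.351 over all probe sets).

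Ccr1, a receptor for inflammatory CC chemokines such as Ccl3 and Ccl5, stood at 7.71 on each of the 3 estradiol arrays, against 8.28, 8.44 and 8.43 on the unstimulated arrays. The groups did not overlap. It fell by 0.67 ± 0.06 in log2 units and was thus 1.59-fold lower (limma adjusted p = 0.000763). The second Ccr1 probe set moved by the same amount, -0.67 ± 0.14, and also passed (limma adjusted p = 0.0326 over all probe sets).

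Fpr2, a formyl peptide receptor that also binds serum amyloid A and annexin A1, stood at 5.02, 4.85 and 5.40 with estradiol, against 4.40, 4.20 and 4.14 without. It lay below the 40th percentile on all 6 arrays, and its intensities averaged 33.5 in estradiol-treated and 18.1 in unstimulated cells. The lowest estradiol array was still above the highest unstimulated one. The log2 change was 0.84 ± 0.14 (1.79-fold, limma adjusted p = 0.0128), and 0.53 with a pseudocount of 16. Without unstimulated replicate 2 or 3 the adjusted p was 0.0592 or 0.0569. Fpr2 has close paralogs, and hybridisation of their transcripts to its probe set was not tested.

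Ltb4r1, the high-affinity receptor of leukotriene B4, stood at 6.84, 6.74 and 6.60 with estradiol, against 6.25, 6.31 and 6.34 without. It too was dim, and the groups did not overlap. The log2 change was 0.43 ± 0.07 (1.34-fold, limma adjusted p = 0.0116). Without unstimulated replicate 1 or 2 the adjusted p was 0.0542 or 0.0512.

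**Figure D1:**
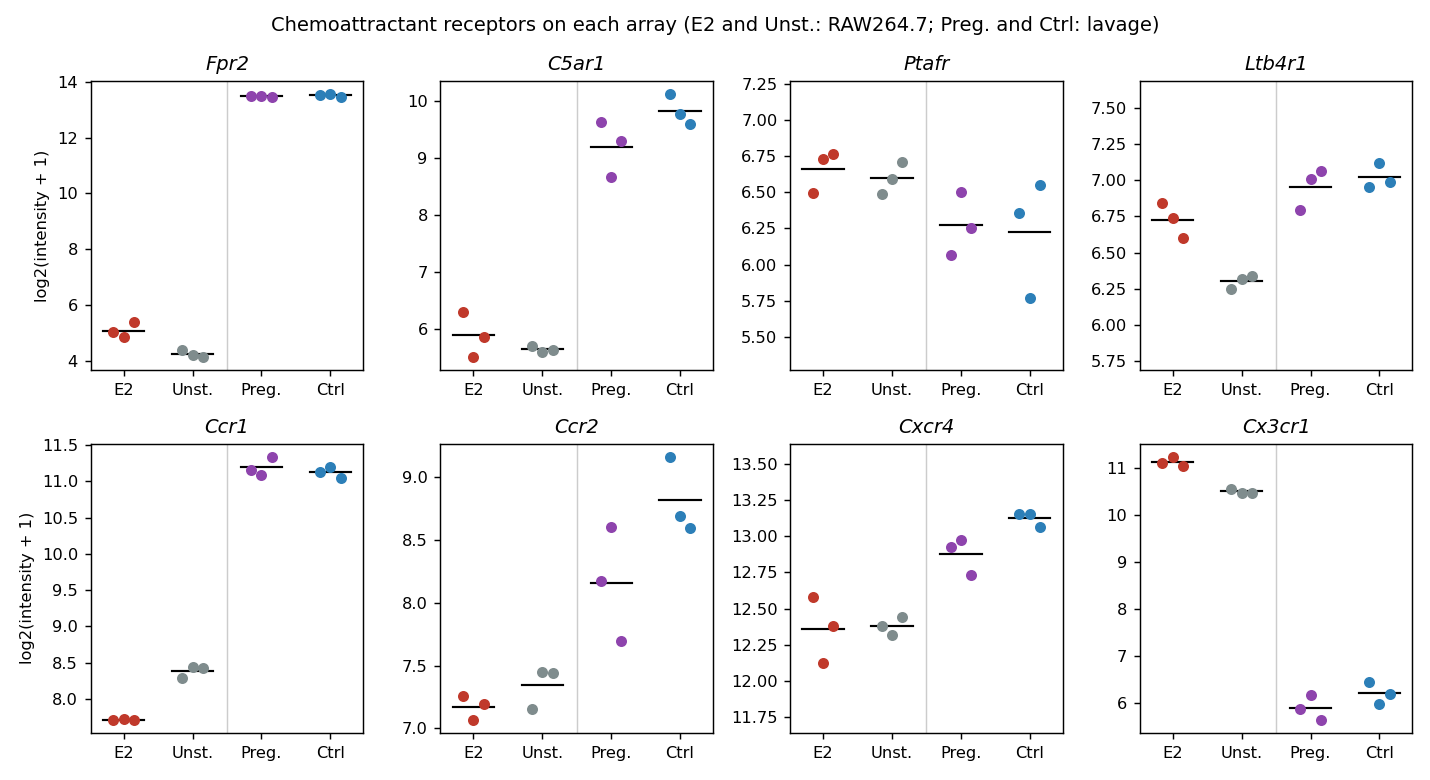
Each panel plots 1 receptor as log2(intensity + 1) on the 12 arrays, with estradiol (E2) and unstimulated (Unst.) RAW264.7 cells to the left of the grey line and pregnant (Preg.) and control (Ctrl) lavage cells to the right. Points are arrays and bars are means of 3; each panel has its own scale. Fpr2 lies at 13.47 to 13.56 in lavage and at 4.14 to 5.40 in RAW264.7 cells, while Cx3cr1 is the receptor that lies far higher in RAW264.7 cells.

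The other 4 receptors overlapped between the estradiol and unstimulated arrays. Cxcr4, the receptor of the retention chemokine Cxcl12, was at 12.58, 12.13 and 12.38 with estradiol and at 12.38, 12.32 and 12.44 without. Its change was -0.02 (95% confidence interval -0.28 to 0.25, limma adjusted p = 0.943), and it was 0.10 without estradiol replicate 2. C5ar1, the receptor of complement fragment C5a, was at 6.30, 5.51 and 5.87 with estradiol and at 5.70, 5.60 and 5.63 without, a spread within the estradiol group that covered all unstimulated values. Its change was 0.25 (interval -0.18 to 0.68, limma adjusted p = 0.430). Without estradiol replicate 2 the change was 0.44 (limma adjusted p = 0.0820), and without estradiol replicate 1 it was 0.04. C5ar1 and Ptafr were dim in these cells.

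Ccr2, which draws monocytes towards Ccl2, was at 7.26, 7.07 and 7.19 with estradiol and at 7.16, 7.45 and 7.44 without. The groups overlapped, the change was -0.18 (interval -0.40 to 0.05, limma adjusted p = 0.290), and its 3 probe sets disagreed in sign, with values of -0.18, 0.21 and -0.19, none called. Ptafr, the receptor of platelet-activating factor, ranged from 6.49 to 6.77 with estradiol and from 6.49 to 6.71 without, and its change was 0.07 (interval -0.15 to 0.28, limma adjusted p = 0.694).

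The stretches of genome just before the starts of the 4 receptors called with estradiol are shown because these genes moved in the same treatment, 3 up and 1 down. They are the 250 bases before each RefSeq start on build GRCm38.p6, read on the gene's strand, and lie at chr9:120068297-120068546 (minus strand), chr9:123968693-123968942 (minus strand), chr17:17887574-17887823 (plus strand) and chr14:55765712-55765961 (plus strand). Capitals mark matches, on either strand, to GGTCA, a single repeat of the estrogen response element, the ETS core AGGAA that the macrophage factor PU.1 binds, and the NF-kB pattern GGGANNNNCC.
Cx3cr1: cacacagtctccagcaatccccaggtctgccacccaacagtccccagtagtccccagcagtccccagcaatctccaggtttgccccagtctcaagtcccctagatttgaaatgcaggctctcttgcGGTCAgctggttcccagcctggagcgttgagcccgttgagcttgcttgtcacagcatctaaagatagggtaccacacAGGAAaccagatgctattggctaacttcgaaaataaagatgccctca
Ccr1: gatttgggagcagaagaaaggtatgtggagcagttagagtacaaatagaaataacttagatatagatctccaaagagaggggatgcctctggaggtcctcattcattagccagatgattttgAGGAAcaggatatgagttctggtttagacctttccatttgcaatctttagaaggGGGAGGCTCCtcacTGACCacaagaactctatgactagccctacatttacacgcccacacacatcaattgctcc
Fpr2: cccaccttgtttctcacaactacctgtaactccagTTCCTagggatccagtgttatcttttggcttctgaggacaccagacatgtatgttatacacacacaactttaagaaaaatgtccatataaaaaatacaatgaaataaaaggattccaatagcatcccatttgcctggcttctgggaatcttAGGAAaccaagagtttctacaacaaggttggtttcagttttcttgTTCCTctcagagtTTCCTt
Ltb4r1: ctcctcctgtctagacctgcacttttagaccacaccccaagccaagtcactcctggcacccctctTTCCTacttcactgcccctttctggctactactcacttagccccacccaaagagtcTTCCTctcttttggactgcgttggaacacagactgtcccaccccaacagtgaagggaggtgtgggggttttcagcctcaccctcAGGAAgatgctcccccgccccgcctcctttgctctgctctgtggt

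All 4 windows hold AGGAA, as do 8 of the 9 receptors and 60.3% of the 32851 RefSeq windows of this length. Fpr2 has 4 matches, Ltb4r1 3, and Cx3cr1 and Ccr1 have 1 each. The single repeat GGTCA occurs 1 time each before Cx3cr1 and Ccr1 and not before Fpr2 or Ltb4r1, and 4 of the 9 receptors and 35.2% of all windows hold it. The NF-kB pattern is found before Ccr1 alone of the 4 (17.6% of all windows). Neither the full estrogen response element GGTCANNNTGACC, which contains GGTCA on each strand and is present in 0.0639% of windows, nor the AP-1 pattern TGANTCA (6.75% of windows) occurs in these 4. A match is a description of letters, and a missing match says only that the letters are not in this window.

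The rest of the pathway was read from 5 lists of genes. Among 16 measured ligands of these receptors 4 rose and 0 fell with estradiol, a share of 25% called where all genes gave 11.4%. Saa3, a serum amyloid A made by macrophages, rose by 1.33 ± 0.09 (2.52-fold, limma adjusted p = 0.000314) and averaged 10.55 with estradiol and 9.22 without. Ccl12, a ligand of Ccr2, rose by 1.02 ± 0.16 at dim levels of 4.97 with estradiol and 3.95 without (limma adjusted p = 0.00901). Ccl5, a ligand of Ccr1, rose by 0.49 ± 0.05 (limma adjusted p = 0.00165), and Ccl4 was the fourth. In the 6 measured enzymes that make or break lipid mediators, 3 rose and 1 fell (66.7%). The phospholipase Pla2g4a, which frees arachidonic acid, rose by 0.32 ± 0.05, the acyltransferase Lpcat1 by 0.28 ± 0.05 and the acetylhydrolase Pafah2, which inactivates platelet-activating factor, by 0.26 ± 0.05 (limma adjusted p = 0.00901, 0.0128 and 0.0269). Alox5ap, the protein that presents arachidonic acid to 5-lipoxygenase, fell by 0.21 ± 0.05 on the log2 scale (limma adjusted p = 0.0314).

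Of 24 measured related receptors 1 rose and 1 fell, or 8.33% called where all genes gave 11.4%, and 20 of the 24 were dim. Ccrl2, an atypical receptor that binds chemerin, rose by 0.60 ± 0.05, averaging 9.12 with estradiol and 8.52 without (limma adjusted p = 0.00073). Cysltr1, a cysteinyl leukotriene receptor, fell by 0.90 ± 0.14 on the log2 scale, averaging 8.39 with estradiol and 9.29 without (limma adjusted p = 0.00883). Of 17 G protein signalling genes (5.88% called) only Pik3cg, the phosphoinositide 3-kinase gamma catalytic subunit, was called, with a rise of 0.20 ± 0.05 (limma adjusted p = 0.0448). Of 12 desensitisation genes (16.7% called) the RGS protein Rgs3 rose by 0.29 ± 0.06 and Rgs10 fell by 0.31 ± 0.05 on the log2 scale (limma adjusted p = 0.0185 and 0.0126). The median log2 changes of the 5 lists lay between 0.00 and 0.07, against 0.02 over all genes.

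**Figure D2:**
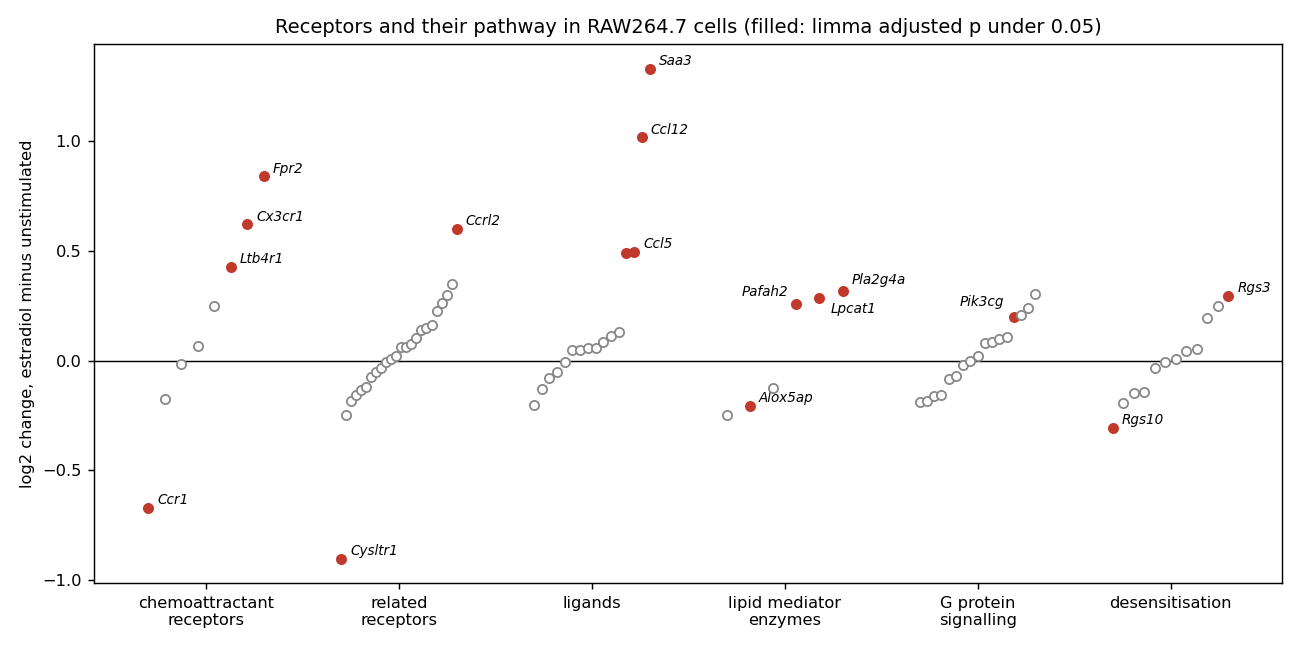
The vertical axis is the log2 change, estradiol minus unstimulated RAW264.7 cells, and each point is a gene of the receptor set or of 1 of 5 pathway lists, sorted by its change. Filled points passed a limma adjusted p under 0.05. The ligand Saa3 has the highest value at 1.33 and the receptor Cysltr1 the lowest at -0.90.

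Among markers of other cells, 2 of 10 measured neutrophil markers (20%) rose with estradiol and 0 fell, where 11.4% of all genes were called. S100a8 averaged 8.31 with estradiol and 6.58 without, and Mmp9, which macrophages also make, 9.76 with estradiol and 8.17 without. The list as a whole was split, with 5 positive and 5 negative changes and a median log2 change of 0.05. S100a9 and Ltf were among the negative ones, and neither was called. The summed intensity of the list was 1587 to 1600 in estradiol-treated cells and 767 to 835 in unstimulated cells, and 3 of the 10 genes lay above the 40th percentile on the estradiol arrays and 2 on the unstimulated arrays. Of 7 monocyte and dendritic cell markers 2 rose and 0 fell (28.6%), with summed intensities of 413 to 429 with estradiol and 317 to 341 without. The part of these genes in the receptor changes was not tested.

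In lavage macrophages, none of the 8 receptors passed the test between 3 pregnant and 3 control samples, where limma called 0 of 12393 genes (0%). At an unadjusted p under 0.05 there were 3 of 8 receptors, C5ar1, Ccr2 and Cxcr4, all with lower values in pregnancy, and 9.38% of all genes. Of the 8, 6 had negative and 2 positive changes, and the median was -0.16, against 0.03 over all genes. Groups did not overlap for 1 receptor, Cxcr4, and for 15.7% of all genes.

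Cxcr4 was at 12.93, 12.97 and 12.73 in pregnant lavage, against 13.15, 13.15 and 13.07 in control lavage. All pregnant values were below all control values, by a log2 change of -0.25 ± 0.08 that failed the correction (limma adjusted p = 0.483). Ccr2 was at 8.17, 8.60 and 7.69 in pregnant lavage, against 9.16, 8.69 and 8.59 in control lavage. Pregnant replicate 2 lay just above control replicate 3, so the groups overlapped, with a change of -0.66 ± 0.25 (limma adjusted p = 0.499). It was -0.42 without pregnant replicate 3 and -0.88 without pregnant replicate 2, neither called. The other Ccr2 probe sets gave -0.48 and -0.79, neither called. C5ar1 was at 9.63, 8.67 and 9.30 in pregnant lavage, against 10.12, 9.76 and 9.59 in control lavage, and pregnant replicate 1 lay within the control range. Its change was -0.62 ± 0.26 (limma adjusted p = 0.526), and -0.36 without pregnant replicate 2. Pregnant replicate 2 also had the highest 3' minus 5' difference for actin among the lavage arrays, 0.39, against 0.26 to 0.35. The part of this in the C5ar1 value was not tested.

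Control replicate 1 had the highest C5ar1 and Ccr2 of the 6 lavage arrays, and also the highest sums of neutrophil, T cell, and monocyte and dendritic cell markers (22121, 14239 and 1300). The summed intensity over 10 measured neutrophil genes was 7656 to 12396 in pregnant and 7614 to 22121 in control lavage. Of the 10 genes, S100a8, S100a9, Csf3r, Mmp8 and Ltf lay above the 40th percentile on all 6 lavage arrays, and Ngp, Elane and Mpo on none. Mmp8 averaged 9.98 in pregnant and 10.38 in control lavage, and Ltf 10.39 in pregnant and 9.19 in control lavage. Summed T cell markers over 12 genes were 12410 to 13194 in pregnant and 12553 to 14239 in control lavage, and much of that was Cd2, which averaged 13.39 in both. The T cell receptor chain Cd3e averaged 6.53 ± 0.46 in pregnant and 7.61 ± 0.89 in control lavage (SD, n = 3). Monocyte and dendritic cell markers summed to 896 to 1209 in pregnant and 835 to 1300 in control lavage, and eosinophil and B cell markers were below the 40th percentile on every lavage array. Epithelial markers over 8 genes summed to 15079 to 23821 in pregnant and 13508 to 21780 in control lavage. The highest sum was that of pregnant replicate 2, lowest in C5ar1, and the next that of control replicate 1, highest in C5ar1. Of the 8, 3 had an unadjusted limma p under 0.05, against 9.38% of all genes, and 0 were called. Without control replicate 1 the changes were -0.48 for C5ar1, -0.48 for Ccr2 and -0.23 for Cxcr4, none called (limma adjusted p = 0.650, 0.621 and 0.563). The part of these markers in the receptor values was not tested.

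**Figure D3:**
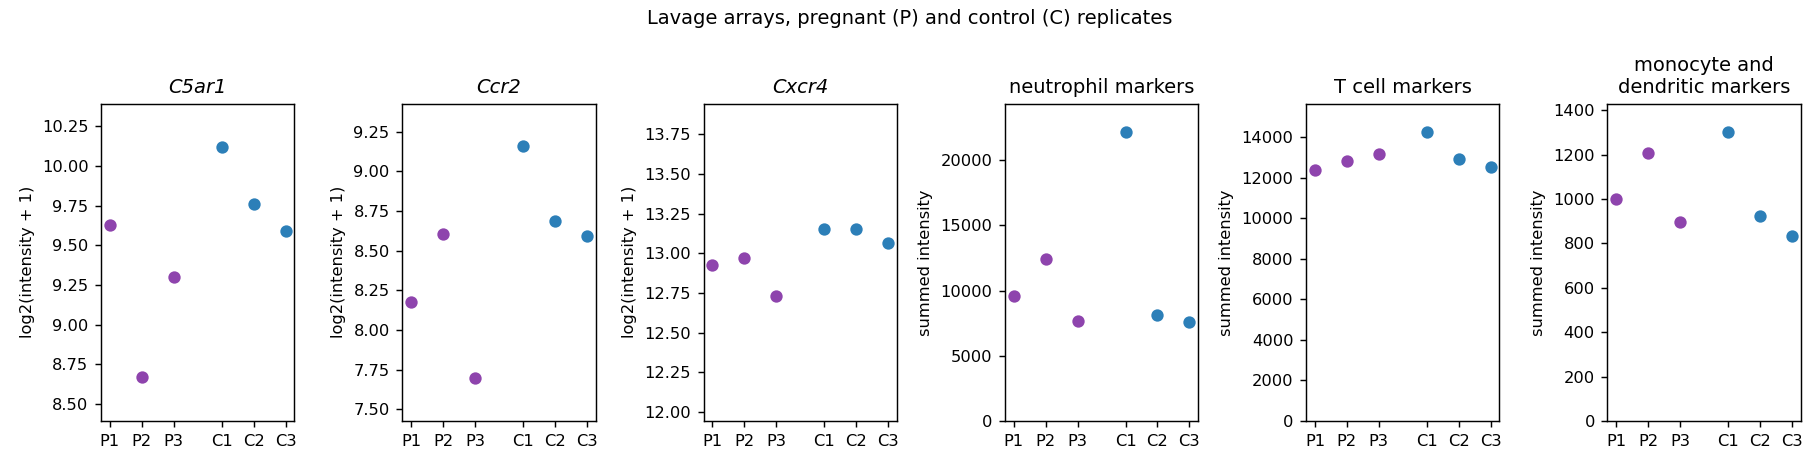
The first 3 panels plot C5ar1, Ccr2 and Cxcr4 as log2(intensity + 1) on axes of equal span, and the last 3 plot the summed intensity of marker genes of neutrophils, T cells, and monocytes and dendritic cells, on the pregnant (P) and control (C) lavage arrays. Control replicate 1 stands highest for C5ar1 and Ccr2 (10.12 and 9.16) and for the neutrophil (22121), T cell (14239) and monocyte and dendritic (1300) sums.

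The other 5 receptors had overlapping values in pregnant and control lavage. Fpr2 was at 13.49, 13.51 and 13.47 in pregnant lavage, against 13.53, 13.56 and 13.47 in control lavage, a change of -0.03 with a 95% confidence interval of -0.17 to 0.11. Ccr1 was at 11.16, 11.08 and 11.34 in pregnant lavage, against 11.13, 11.20 and 11.05 in control lavage (change 0.07, interval -0.14 to 0.27). Cx3cr1, dim in lavage, was at 5.88, 6.18 and 5.65 in pregnant lavage, against 6.46, 5.97 and 6.19 in control lavage (change -0.31, interval -0.72 to 0.10), and its other probe set changed by 0.00. Ltb4r1 changed by -0.07 (interval -0.29 to 0.16) and Ptafr by 0.04 (interval -0.47 to 0.56), both dim.

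**Figure D4:**
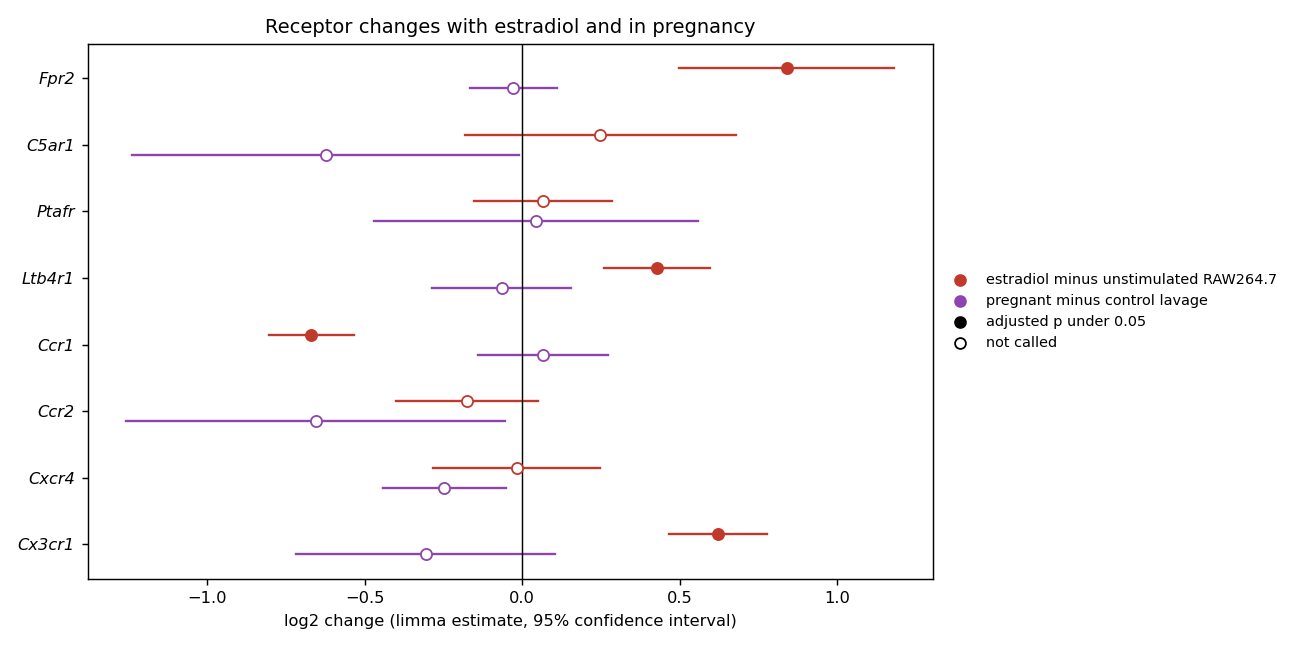
Points give the limma log2 change of each receptor and lines its 95% confidence interval, for estradiol minus unstimulated RAW264.7 cells and for pregnant minus control lavage. Filled points passed an adjusted p under 0.05. The 4 filled points all belong to the estradiol comparison, with Fpr2 (0.84), Cx3cr1 (0.62) and Ltb4r1 (0.43) above 0 and Ccr1 (-0.67) below.

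In the pathway lists 0 genes were called in pregnancy, and the smallest p of each list is given. Among related receptors it was that of Cxcr6, a receptor of memory T cells and NKT cells, at -1.23 ± 0.32 and dim (limma adjusted p = 0.438). Among ligands it was Ccl9 at 0.24 ± 0.08, and among lipid mediator enzymes Pafah2 at 0.74 ± 0.19 (limma adjusted p = 0.477 and 0.438). Among signalling genes it was Rac2 at -0.13 ± 0.06, and among desensitisation genes Rgs2 at -0.20 ± 0.08 (limma adjusted p = 0.570 and 0.502).

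Probe sets of 1 gene bore on how far each value can be read. The 2 probe sets of Ccr1 gave -0.67 and -0.67 with estradiol and 0.07 and 0.09 in pregnancy. The 2 of Ptafr gave 0.07 and 0.06 with estradiol and 0.04 and -0.07 in pregnancy. For Ccr2 the 2 weaker probe sets were below the 40th percentile on all 12 arrays, yet had the sign of the kept one in pregnancy. For Cx3cr1 the weaker probe set had a wide interval with estradiol, -0.18 to 1.00.

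**Figure D5:**
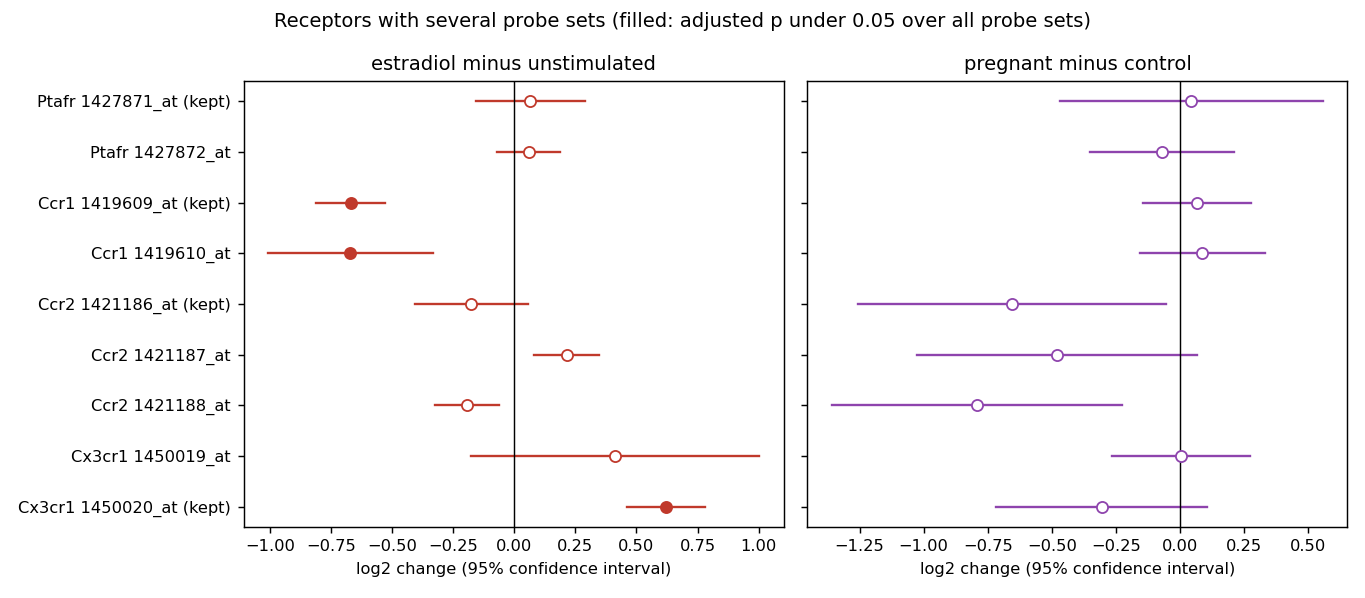
Rows are the probe sets of the 4 receptors that have several, and the axis is the log2 change with its 95% confidence interval, for estradiol minus unstimulated cells (left) and pregnant minus control lavage (right). Filled points passed an adjusted p under 0.05 over all 20380 probe sets, which both Ccr1 probe sets and 1 of 2 Cx3cr1 probe sets did with estradiol.

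The estradiol and pregnancy changes were then set against each other in a fit of all 12 arrays. The difference was called for 4 of 8 receptors, or 50%, where 4.43% of all genes were called, 2.21% with positive and 2.22% with negative values. These were the 4 receptors called with estradiol, and the difference contains that change, so its calls are no separate support. The values were 0.74 ± 0.10 for Ccr1, -0.93 ± 0.20 for Cx3cr1, -0.87 ± 0.17 for Fpr2 and -0.49 ± 0.12 for Ltb4r1 (limma adjusted p = 0.00318, 0.0267, 0.0169 and 0.0445). A positive value means a higher change in pregnancy than with estradiol. Without unstimulated replicate 2 or 3 the number called was 1, Ccr1, which stayed called in all 22 alternatives run. Its second probe set, tested on its own, gave 0.76 and was not called (limma adjusted p = 0.055 over all probe sets).

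In control lavage macrophages 6 receptors were higher and 1 lower than in unstimulated RAW264.7 cells, or 87.5% called, where 61.9% of all genes were called, 27.9% higher and 34% lower. Groups did not overlap for 7 of the 8, and for 69.9% of all genes. After arrays were shifted to a common median, the median log2 change of all genes was -0.11, against -0.07 before. This comparison shares its arrays with the estradiol and pregnancy comparisons, and tissue, culture, sex and strain cannot be told apart in it. Fpr2 was the widest, at 13.53, 13.56 and 13.47 in control lavage, against 4.40, 4.20 and 4.14 in unstimulated cells. Its log2 change was 9.27 ± 0.08 (limma adjusted p = 9.7e-09), and 8.43 with a pseudocount of 16. No fold is given where 1 of the sources lay below the 40th percentile on all its arrays, as RAW264.7 cells did for Fpr2. Its mean intensity was 11745 in control lavage and 18.1 in unstimulated cells. Cx3cr1 was lower in lavage, at 6.46, 5.97 and 6.19 in control lavage against 10.57, 10.48 and 10.48 in unstimulated cells (-4.30 ± 0.12, limma adjusted p = 5.0e-07), and its other probe set gave -4.29.

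C5ar1 was higher in control lavage by 4.18 ± 0.13, Ccr1 by 2.75 ± 0.07 (6.70-fold) and Ccr2 by 1.46 ± 0.16 (2.76-fold), with limma adjusted p = 8.3e-07, 2.5e-07 and 0.000302. The second Ccr1 probe set, below the 40th percentile in RAW264.7 cells, gave a larger log2 change of 3.76 (limma adjusted p = 2.0e-06 over all probe sets). The other Ccr2 probe sets gave 0.44, not called, and 1.47 (limma adjusted p = 0.128 and 0.000968 over all probe sets). Smaller differences were those of Cxcr4, 1.68-fold higher (0.75 ± 0.05), and Ltb4r1, higher by 0.72 ± 0.06, with limma adjusted p = 3.7e-05 and 7.8e-05. Ptafr was dim in both and did not pass (-0.37 ± 0.20, limma adjusted p = 0.149), but with the mean of its 2 probe sets it did (-0.37, adjusted p = 0.00415). Its second probe set, below the 40th percentile in both sources, passed on its own (-0.38 ± 0.09, limma adjusted p = 0.00944 over all probe sets). Of 10 neutrophil markers 6 were higher and 2 lower in control lavage, or 80% called, where 61.9% of all genes were called. Their sums were 7614 to 22121 in control lavage against 767 to 835 in unstimulated cells. Epithelial markers were higher for 8 of 8 (100% called), with sums of 13508 to 21780 in control lavage against 317 to 384 in unstimulated cells. The part of such cells in the receptor levels of lavage was not tested.

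Over the 4 groups, the order of levels was not the same for all receptors (means ± SD, n = 3). Fpr2 averaged 13.49 ± 0.02 in pregnant and 13.52 ± 0.05 in control lavage, and 5.09 ± 0.28 in estradiol-treated and 4.25 ± 0.14 in unstimulated cells, and only the lavage ranges overlapped. C5ar1 averaged 9.20 ± 0.49 and 9.82 ± 0.27 in pregnant and control lavage, and 5.89 ± 0.40 and 5.65 ± 0.05 in estradiol-treated and unstimulated cells, with overlap inside each source. By their means both genes, like Ltb4r1, ran from control lavage, the highest, through pregnant lavage and estradiol-treated cells to unstimulated cells.

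Ccr1 was highest in pregnant lavage (11.19 ± 0.13), then in control lavage (11.13 ± 0.08), whose range overlapped it. In RAW264.7 cells it averaged 7.71 ± 0.0025 with estradiol and 8.38 ± 0.08 without, which were apart. Ccr2 averaged 8.16 ± 0.45 in pregnant and 8.81 ± 0.30 in control lavage, and 7.17 ± 0.10 with estradiol and 7.35 ± 0.17 without, with a gap only between the sources. Cxcr4 averaged 12.88 ± 0.13 in pregnant and 13.12 ± 0.05 in control lavage, and 12.36 ± 0.23 with estradiol and 12.38 ± 0.06 without, with overlap in RAW264.7 cells alone.

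Cx3cr1 had the opposite order of sources, averaging 5.90 ± 0.27 in pregnant and 6.21 ± 0.24 in control lavage, and 11.13 ± 0.10 with estradiol and 10.51 ± 0.05 without, with overlap in lavage alone. Ltb4r1 averaged 6.96 ± 0.14 in pregnant and 7.02 ± 0.09 in control lavage, and 6.73 ± 0.12 with estradiol and 6.30 ± 0.04 without. Its only gap between neighbours was that below the estradiol arrays. For Ptafr every neighbouring pair overlapped, with means between 6.66 ± 0.15 with estradiol and 6.23 ± 0.41 in control lavage.

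Genes whose centred log2 values over the 12 arrays lay nearest to a called receptor were found by the root mean square difference. Genes with Gm or Rik symbols were left out of this search. The 12 points share their 4 groups, and the gap between lavage and RAW264.7 cells sets most of the likeness. The estradiol and unstimulated arrays are among the 12. The estradiol changes given here are thus partly fixed by the choice and are no separate support. Nearest to Fpr2 were Tgfbi (0.24) and P2ry14 (0.25), which changed by 0.48 and 0.24 with estradiol. Both were low in RAW264.7 cells, where Tgfbi averaged 4.63 with estradiol and 4.16 without, and P2ry14 3.83 and 3.59. Nearest to Ccr1 were Prdm1 (0.18, estradiol change -0.36) and Naip5 (0.18, estradiol change -0.24, not called). Nearest to Cx3cr1 were Adam8 (0.15) and Nectin3 (0.17), with estradiol changes of 0.66 and 0.63. Nearest to Ltb4r1 were Ehbp1 (0.07) and Ccdc28a (0.10), with 0.33 and 0.38.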

How the data were processed

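The deposited table holds 1 linear intensity for each of 22690 probe sets and 12 arrays, from 6.51 to 28506. Per the submitters' processing notes these intensities come from RMA, no version stated, which corrects background, quantile-normalizes and summarises probes and usually gives log2 values. The genome build of the annotation is not given in the sources used here, and the table holds no detection calls. Gene symbols came from the array's annotation table: 20380 had 1 gene symbol, 691 several, 1555 none, and 64 were controls. Where a probe set had 1 symbol, it was replaced by RefSeq's symbol for the same gene identifier if there was one.

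Values were taken as log2(intensity + 1), so a log2 change slightly understates dim genes. For each gene the probe set with the highest mean was kept (12393 genes), and each comparison was fitted with limma 3.58.1 (lmFit, eBayes) under R 4.3.3 on the 6 arrays compared, or on all 12 for the difference between changes. Tests were two-sided, with Benjamini-Hochberg adjustment over all genes and calls at an adjusted p under 0.05. The fits were tested on simulated data. For arrays, their number limits the precision. The members, lists, alternatives and naming rule were chosen with earlier results of these data known. The rule names each receptor, up to 3 called genes per list and direction with estradiol, and the smallest p per list in pregnancy. It also names the 2 genes nearest to each called receptor, with Gm and Rik symbols left out. Replicates were numbered in deposit order, which pairs nothing. Promoter sequences are RefSeq's, build GRCm38.p6. All 9 members had a window. Alternatives were quantile normalization, a common median, a filter on dim genes, probe sets averaged per gene, all probe sets, a robust intensity-dependent prior, array weights, 1 fit of all arrays, pseudocounts of 0 and 16, an adjusted p under 0.01, and each array left out.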

Additional observations from a re-analysis of the deposited data

Results flagged for a closer look

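For 4 receptors the pregnancy change differed from the estradiol change by the test of the difference itself (limma on all 12 arrays): Ccr1 by 0.74 (adjusted p = 0.00318), Cx3cr1 by -0.93 (0.0267), Fpr2 by -0.87 (0.0169) and Ltb4r1 by -0.49 (0.0445), all log2. Ccr1 kept its call in 22 of 22 alternatives and Fpr2 in 19 of 22, but Cx3cr1 in 12 of 22 and Ltb4r1 in 8 of 21. These counts do not cover the weaker probe sets on their own. The second Ccr1 probe set gave 0.76 and was not called (limma adjusted p = 0.055 over all probe sets). The other Cx3cr1 probe set gave -0.41, not called either (limma adjusted p = 0.532 over all probe sets). The Cx3cr1 call was lost with its probe sets averaged (limma adjusted p = 0.0735). The Ltb4r1 call was lost with quantile normalization (limma adjusted p = 0.0841), with the robust prior (0.0711) and with all probe sets tested separately (0.0542). Both calls were also lost at an adjusted p under 0.01 and with some single arrays left out. The filter on dim genes removed Ltb4r1. For Ccr1 the change was 0.07 in pregnancy and -0.67 with estradiol. Cx3cr1 was dim in lavage, Fpr2 in RAW264.7 cells and Ltb4r1 in both sources.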

How the results depend on the processing

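No paired analysis was possible because the labels number no replicates across groups. Of 32 receptor changes (8 receptors, 4 comparisons) with 573 values under alternatives, 524 kept direction and call, 32 lost the call, 1 gained it and 16 changed sign. In the estradiol comparison the number of receptors called was 4, and it was 2 with the filter on dim genes, which removed Fpr2 and Ltb4r1, 2 at an adjusted p under 0.01, and 2 to 4 without single arrays. For the difference between changes it was 4, and 1 at an adjusted p under 0.01, 3 with quantile normalization, the filter on dim genes, averaged probe sets, all probe sets or the robust prior, and 1 to 4 without single arrays. Without unstimulated replicate 2 or 3 the 1 left was Ccr1. It was 2 without unstimulated replicate 1, estradiol replicate 1 or 2, control replicate 3 or pregnant replicate 1. In pregnancy the count was 0 in every alternative run. Between sources it was 7, except for 6 with the filter on dim genes and 8 with probe sets averaged per gene. All sign changes were of values not called. Cxcr4 with estradiol was 0.0001 with array weights, and -0.13 to 0.10 without single arrays. Ptafr in pregnancy was -0.009 with a common median, -0.0132 with the mean of its probe sets, -0.13 with array weights, and -0.18 to 0.21 without single arrays. Without single arrays Ltb4r1 in pregnancy was -0.12 to 0.015, Ccr1 in pregnancy -0.0054 to 0.12, and Ptafr in the difference -0.25 to 0.14. The cause was not tested, except for the filter and the stricter threshold, which act by construction. Low signal limits Fpr2, Ltb4r1, C5ar1 and Ptafr in RAW264.7 cells, and Cx3cr1, Ltb4r1 and Ptafr in lavage.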
